A study of Homo sapiens with 4 samples.

Results

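The cyclins, the kinases that they activate, and the E2F and RB proteins that switch cell cycle genes on and off were followed in MKN28 cells, a human gastric adenocarcinoma line. The group holds 41 genes of the 23362 entries in the table of expression values, taken by gene symbol. Where a symbol was listed more than once, as for RBL1 and CKS1B, the entry with the highest mean level was used. The study asked whether the tumor suppressor KIAA1324, a transmembrane protein, needs its N-linked sugars to act on these cells, and RNA sequencing was its view of the transcriptome. Each of 4 groups gave 1 library of poly(A) RNA. All groups were MKN28 cells carrying a tet-on construct, which is switched on by doxycycline. Those of KIAA1324 bore an HA tag, were brought in by retrovirus and were selected with G418 and puromycin. The control cells (Luc) carried luciferase, the WT cells carried unmutated KIAA1324, the 3NQ cells carried KIAA1324 with asparagine changed to glutamine at its N-glycosylation sites, and the ΔTM cells carried KIAA1324 without the transmembrane domain. The sources used here state neither whether the cells were clones or pools nor whether the cells had doxycycline before lysis. With 1 library per group, no difference below has a replicate check, no test was made, and no p-value is given.

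KIAA1324 itself had an FPKM, that is, fragments scaled for gene length and library size, of 11185 in WT, 8197 in 3NQ and 2.86 in Luc. It was listed at 0 in the remaining library, which is therefore called the ΔTM-labelled library, and its cells the ΔTM-labelled cells. Between 11297 and 11406 genes per library had an FPKM of at least 1. The read depth is unknown. The most frequent ratio among low FPKM values, which held 8.25% to 10.4% of those values, gave a hint of a relative depth between 0.962 and 1.14 of that of Luc. All 8 epithelial markers were present in all 4 libraries, with a summed FPKM of 14064 for Luc, 8327 for WT, 10741 for 3NQ and 12295 for ΔTM-labelled cells. The keratins KRT8 and KRT18 fell in WT, by 0.91 and 0.80 on the log2 scale, and the part of such broad shifts in the results below was not tested. Of 8 markers of leukocytes, fibroblasts, endothelium and muscle, 7 were found, and their summed FPKM lay between 17.3 and 20.7, with only CD68 and COL1A1 at 1 or more. CD3E was listed at 0 in all 4 libraries.

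A cell passes through its cycle because cyclins, proteins that are made and destroyed in turn, bind and activate cyclin-dependent kinases (CDKs). In G1, the D-type cyclins with CDK4 and CDK6 phosphorylate RB1 and its relatives, the pocket proteins, and so free the E2F factors, which switch on genes for DNA replication together with a DP partner. Cyclins E and A with CDK2 then drive S phase, and the B-type cyclins with CDK1 drive mitosis, where WEE1 and PKMYT1 hold CDK1 back and the CDC25 phosphatases release it. Genes of G2 and mitosis are switched on late, by FOXM1 and by MYBL2 with the MuvB complex, which binds a short element called the cell cycle genes homology region (CHR). Because whole cultures were sequenced, fewer cells in a phase and less RNA per cell cannot be told apart.

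The promoters of the members with the lowest ratios of WT to Luc among those with an FPKM of at least 5 are shown because the E2F factors and MuvB read short elements in them. CDK1 and CCNB2, kinase and cyclin of mitosis, were added after their values were seen. Each stretch runs from 250 bases before the annotated start to 30 bases after it, read 5′ to 3′ on the strand of the gene, and comes from RefSeq on the GRCh38.p14 build, whereas the gene positions below are on GRCh37. Capitals mark each match to one of 3 motifs, searched on both strands: the CHR (TTTGAA or TTTAAA), the CCAAT box (CCAAT) and the E2F element (TTCCCGC or TTCCCGG or TTCGCGC or TTCGCGG or TTGCCGC or TTGCCGG or TTGGCGC or TTGGCGG). A match on the opposite strand reads in reverse complement, such as ATTGG for CCAAT.
The E2F1 stretch lies at chr20:33686356-33686635 on the minus strand, that of SKP2 at chr5:36151861-36152140 on the plus strand, and that of CDC25C at chr5:138331775-138332054 on the minus strand. The E2F2 stretch lies at chr1:23531204-23531483 on the minus strand, that of CDK1 at chr10:60778081-60778360 on the plus strand, and that of CCNB2 at chr15:59104896-59105175 on the plus strand.
E2F1: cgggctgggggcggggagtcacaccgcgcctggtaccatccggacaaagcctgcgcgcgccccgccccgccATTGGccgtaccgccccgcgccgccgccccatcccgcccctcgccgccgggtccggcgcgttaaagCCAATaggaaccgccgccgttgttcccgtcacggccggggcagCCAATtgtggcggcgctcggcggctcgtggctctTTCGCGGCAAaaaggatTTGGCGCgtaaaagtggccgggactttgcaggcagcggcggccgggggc
SKP2: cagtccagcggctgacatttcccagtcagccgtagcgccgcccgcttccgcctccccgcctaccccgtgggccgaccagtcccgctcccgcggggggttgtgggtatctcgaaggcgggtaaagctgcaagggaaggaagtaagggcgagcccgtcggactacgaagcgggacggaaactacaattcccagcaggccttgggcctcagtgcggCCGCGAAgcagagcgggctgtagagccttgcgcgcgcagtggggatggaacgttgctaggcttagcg
CDC25C: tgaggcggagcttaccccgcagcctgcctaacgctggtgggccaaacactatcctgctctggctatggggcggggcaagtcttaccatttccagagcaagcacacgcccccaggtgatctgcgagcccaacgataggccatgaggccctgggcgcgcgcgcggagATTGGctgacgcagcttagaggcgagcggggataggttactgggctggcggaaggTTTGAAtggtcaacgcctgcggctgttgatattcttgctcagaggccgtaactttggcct
E2F2: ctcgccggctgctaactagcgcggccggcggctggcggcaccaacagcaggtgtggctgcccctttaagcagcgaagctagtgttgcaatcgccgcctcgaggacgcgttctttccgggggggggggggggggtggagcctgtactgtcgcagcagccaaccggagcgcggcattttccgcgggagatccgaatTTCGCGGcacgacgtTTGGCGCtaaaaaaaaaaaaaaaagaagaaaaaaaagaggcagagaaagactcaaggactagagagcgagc
CDK1: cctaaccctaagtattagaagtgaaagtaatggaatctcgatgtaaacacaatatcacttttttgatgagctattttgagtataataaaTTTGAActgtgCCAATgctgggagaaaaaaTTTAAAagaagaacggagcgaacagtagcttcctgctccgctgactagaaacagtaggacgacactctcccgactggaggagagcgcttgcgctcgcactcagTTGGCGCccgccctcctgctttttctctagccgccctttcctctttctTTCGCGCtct
CCNB2: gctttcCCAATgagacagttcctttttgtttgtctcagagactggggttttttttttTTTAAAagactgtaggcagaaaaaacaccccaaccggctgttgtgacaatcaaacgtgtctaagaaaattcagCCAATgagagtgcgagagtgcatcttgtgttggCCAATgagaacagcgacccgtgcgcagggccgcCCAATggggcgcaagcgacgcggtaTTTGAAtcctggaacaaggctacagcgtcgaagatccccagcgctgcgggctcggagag

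The E2F1 and E2F2 stretches each held TTCGCGG followed by TTGGCGC just before the start. In E2F1 they lay 36 to 30 and 19 to 13 bases before it, and TTGCCGC on the opposite strand overlapped the former match. In E2F2 they lay 56 to 50 and 41 to 35 bases before the start. SKP2 held TTCGCGG on the opposite strand, 37 to 31 bases before its start, and no other match. CDC25C and CCNB2 instead held TTTGAA close to the start, 30 to 25 and 29 to 24 bases before it. CCNB2 also held 4 CCAAT boxes and 1 TTTAAA, and CDC25C held 1 CCAAT box on the opposite strand. The E2F1 stretch held CCAAT boxes too, 113 to 109 and 70 to 66 bases before its start. A further box of E2F1 lay on the opposite strand, 179 to 175 bases before the start. In CDK1, motifs of all 3 kinds were found, with TTGGCGC 28 to 22 bases before the start and TTCGCGC 21 to 27 bases after it. CDC25C has 4 annotated starts and CDK1 has 2. The stretch with the most kinds of motif was taken, with extra weight for a CHR. The matches of these genes, and the CHR above all, are thus partly set by that choice. Of the 4 CDC25C windows, 2 held a CHR, 2 a CCAAT box and 2 an E2F element.

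Windows of 300 bases were used for 31 of the 41 members, in 47 windows. The members without one were CCND1, CCND2, CCNE2, CDK2, WEE1, PKMYT1, E2F5, E2F8, FOXM1 and MYC. Member windows on chromosome 8, where CCNE2, E2F5 and MYC lie, were left out, and the rest had no window under their symbol. E2F5 and MYC count among the G1 members. The shares over all promoters kept that chromosome. Of all 35116 promoter windows, 24.0% held a CHR, 34.6% a CCAAT box and 23.7% an E2F element. Among the members of G1/S and S phase, 70.6% of 17 windows held an E2F element, 47.1% a CCAAT box and 35.3% a CHR. Among the G2/M members, 56.2% of 16 windows held a CHR, 62.5% a CCAAT box and 8 windows an E2F element. Among the G1 members the shares were the lowest of these phases, at 18.2%, 27.3% and 18.2% of 11 windows for the CHR, the CCAAT box and the E2F element. Starts of the same gene overlap in sequence, so windows are not independent, and a match is no proof of binding.

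Ratios were taken as log2 of FPKM + 1 over that of the other library, a scale that understates the difference of low genes. A member is said to have risen or fallen where the ratio reached 1.5-fold (0.585 on the log2 scale). Of the 41 members, 40 reached an FPKM of 1 somewhere in the 4 libraries, as did 11729 symbols in all. E2F8 was listed at 0 in all 4 libraries, and CCND2 passed only through its level in 3NQ. In WT, 9 of these 40 fell compared to Luc, where 3.30% of all genes did. The 9 were E2F1, SKP2, CDC25C, E2F2, CDK1, CCNB2, FBXO5, CCNF and CCNB3. No member rose in WT, where 3.35% of all genes did. The median ratio was −0.35 over the members and −0.0049 over all genes.

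In 3NQ, no member fell compared to Luc, and CCND2 alone rose, where 2.54% and 1.72% of all genes fell and rose. In the ΔTM-labelled library, no member fell or rose compared to Luc, where 1.57% and 1.53% of all genes did. The median ratio of the members was −0.15 in 3NQ and −0.10 in the ΔTM-labelled library, and that of all genes was −0.038 and −0.060. These 3 comparisons share the Luc library, so a high value in Luc lowers all of them at once. WT was the lowest of the 4 libraries for 24 of the 40 members, where it was lowest for 26.6% of all genes. The other libraries were the lowest less often among the members, 7 times for 3NQ, 7 for the ΔTM-labelled library and 2 for Luc, where they were lowest for 23.2%, 31.8% and 18.3% of all genes. Luc was the highest for 24 members and for 30.6% of all genes, and WT, 3NQ and the ΔTM-labelled library were for 5, 5 and 6 members and for 33.6%, 19.0% and 16.8% of all genes. The order from Luc through the ΔTM-labelled library and 3NQ down to WT was found in 14 members and in 8.22% of all genes.

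**Figure D1:**
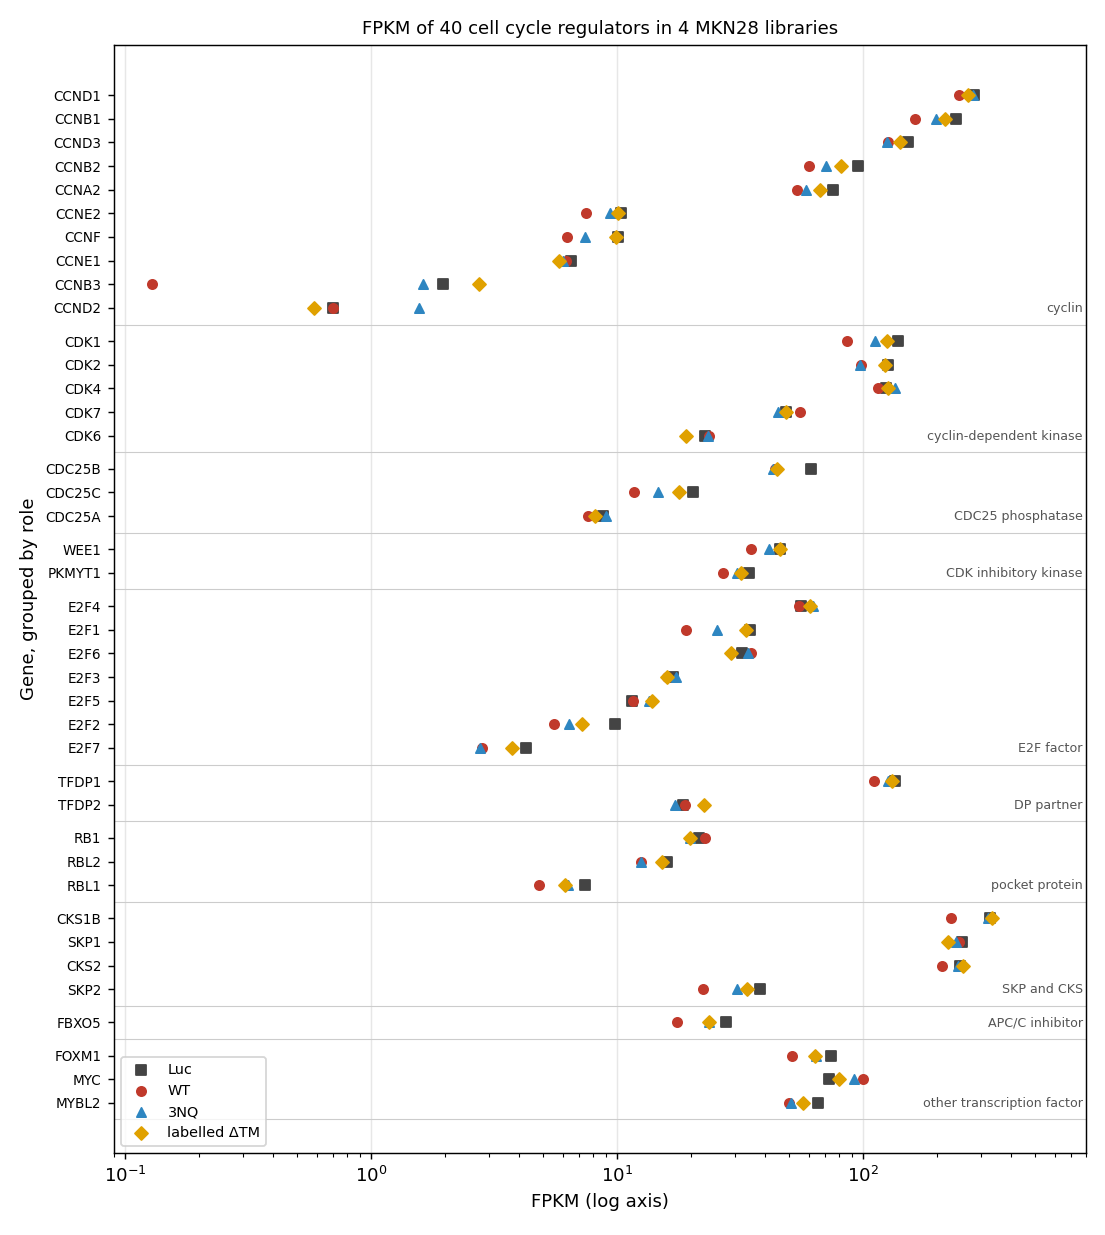
FPKM on a log axis of the 40 members that passed the filter, grouped by role, with 1 marker per library (square, Luc; circle, WT; triangle, 3NQ; diamond, the ΔTM-labelled library). There are no error bars because each group has 1 library. The WT circle lies to the left of the other markers for 24 genes, farthest for CCNB3, at 0.129 against 1.63 to 2.75.

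The members were then compared by the phase in which their proteins act. The 11 regulators of G1 had a median ratio of −0.02 for WT, 0.04 for 3NQ and −0.08 for the ΔTM-labelled library, and none of them fell in any of the 3. The 15 measured regulators of G1/S and S phase had medians of −0.42, −0.13 and −0.09, and 4 of them fell in WT (E2F1, E2F2, SKP2 and FBXO5). The 12 regulators of G2/M had medians of −0.53, −0.28 and −0.14, and 5 of them fell in WT (CDC25C, CDK1, CCNB2, CCNF and CCNB3). All 12 G2/M members were below Luc in WT and in 3NQ, and 9 were in the ΔTM-labelled library, although CKS2 in 3NQ and CCNF in the ΔTM-labelled library crossed 0 after rescaling by the median of ratios. WT was the lowest library for 11 of the 12 G2/M members, 9 of the 15 of G1/S and S phase and 4 of the 11 of G1. The order from Luc through the ΔTM-labelled library and 3NQ to WT was found in 7 members of G2/M, in 7 of G1/S and S phase and in 0 of G1. Over all genes, 3.30% fell in WT, 26.6% were lowest there and 8.22% had that order. The 0 fallen of 11 G1 members is near the share over all genes. Whether the phases differed was not tested.

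**Figure D2:**
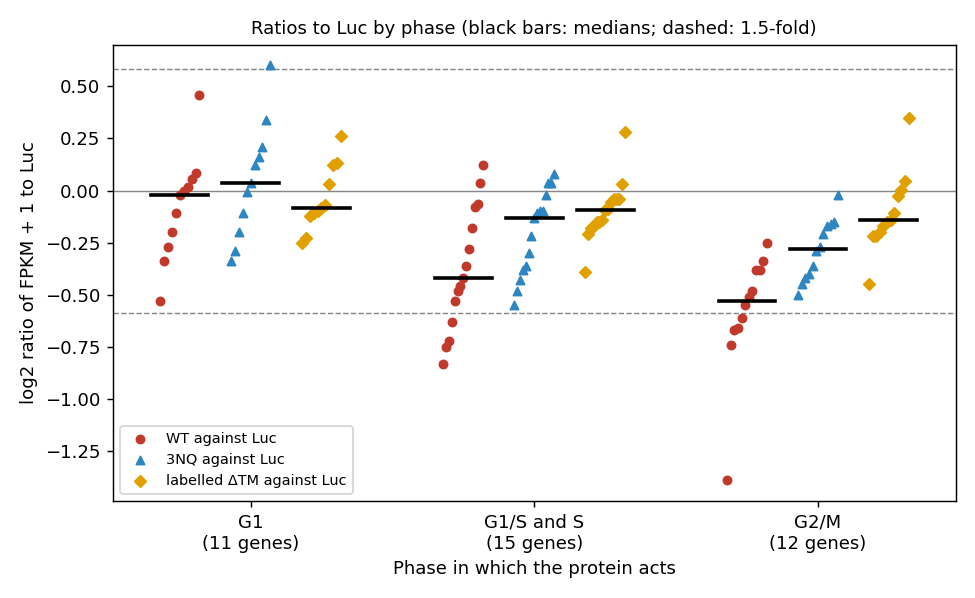
Log2 ratios of FPKM + 1 to Luc for the members of each phase, with 1 point per gene, circles for WT, triangles for 3NQ and diamonds for the ΔTM-labelled library. Black bars are medians and dashed lines mark 1.5-fold; the WT medians are −0.02 in G1, −0.42 in G1/S and S and −0.53 in G2/M.

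Among the cyclins of G1, CCND1 had the highest level in all 4 libraries, and no D-type cyclin fell in any of them compared to Luc. CCND1 (ENSG00000110092, chromosome 11 from 69455855 to 69469242), the main D-type cyclin here, had an FPKM of 281 for Luc, 245 for WT, 280.4 for 3NQ and 266 for ΔTM-labelled cells. CCND3 had an FPKM of 152 for Luc, 126 for WT, 125 for 3NQ and 141 for ΔTM-labelled cells, a log2 ratio of −0.27 in WT and −0.29 in 3NQ. The summed FPKM of the D-type cyclins was 434 for Luc, 372 for WT, 407 for 3NQ and 408 for ΔTM-labelled cells, of which CCND1 made up 64.8% to 69.0%. Thus the WT sum was 0.22 below Luc on the log2 scale, and the level of CCND1 was 1.85 to 2.25 times that of CCND3. CCND2 was at the edge of detection, at 0.698 in both Luc and WT, 1.57 in 3NQ and 0.587 in the ΔTM-labelled library. Its log2 ratio of 0.60 in 3NQ was below the threshold with a pseudocount of 5 (0.20) and when the libraries were scaled to the same total (0.58).

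The kinases that D-type cyclins activate showed no fall in WT. CDK4 had an FPKM of 124 for Luc, 115 for WT, 134 for 3NQ and 126 for ΔTM-labelled cells, and CDK6 had 22.7, 23.6, 23.3 and 19.0 in the same order. Together they summed to 147, 138, 158 and 145, and CDK4 exceeded CDK6 between 4.86-fold in WT and 6.67-fold in the ΔTM-labelled library. CDK7, which activates other CDKs and also acts in transcription, had an FPKM of 48.5 for Luc, 55.2 for WT, 44.8 for 3NQ and 48.3 for ΔTM-labelled cells, and was among the 7 members above Luc in WT. MYC, a transcription factor that drives entry into the cycle, had the highest ratio of all members in WT. Its FPKM was 72.3 for Luc, 99.6 for WT, 91.8 for 3NQ and 79.4 for ΔTM-labelled cells, a log2 ratio of 0.46, 0.34 and 0.13, none of which reached 1.5-fold.

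Among the E2F genes, E2F1 and E2F2 alone fell in WT compared to Luc. E2F1 (ENSG00000101412, chromosome 20 from 32263489 to 32274210, minus strand), an activator of S-phase genes, had an FPKM of 34.7 for Luc, 19.1 for WT, 25.5 for 3NQ and 33.4 for ΔTM-labelled cells. The library labelled ΔTM was thus near Luc, 3NQ lay between and WT was lowest. E2F1 fell by 0.83 on the log2 scale in WT, and its ratio was −0.43 in 3NQ and −0.05 in the ΔTM-labelled library, where rescaling by the median of ratios gave 0.01. Its promoter, printed above, holds E2F elements next to the start. E2F2, a close relative, had an FPKM of 9.77 for Luc, 5.54 for WT, 6.36 for 3NQ and 7.20 for ΔTM-labelled cells. Luc stood above the other 3 libraries, with ratios of −0.72, −0.55 and −0.39 for WT, 3NQ and the ΔTM-labelled library. With a pseudocount of 5 the ratio in WT was −0.49, which ended the call. E2F3, the remaining activator, lay between 15.9 and 17.4 in all 4 libraries. The summed FPKM of these activators was 61.4 for Luc, 40.6 for WT, 49.3 for 3NQ and 56.4 for ΔTM-labelled cells.

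The E2F factors that mainly repress, E2F4 and E2F5 together with the pocket proteins and E2F6 without them, showed no fall in WT. E2F4 had an FPKM of 55.6 for Luc, 54.8 for WT, 62.3 for 3NQ and 60.7 for ΔTM-labelled cells, and was the most abundant E2F in every library. E2F5, which overlaps C8orf59 (99.8 to 115) on the opposite strand, lay between 11.5 and 13.9 and E2F6 between 28.9 and 35.1, and together E2F4, E2F5 and E2F6 summed to 99.2, 101, 109.7 and 104 in Luc, WT, 3NQ and the ΔTM-labelled library. The E2F4 level was 1.60 times that of E2F1 in Luc, 2.87 times in WT, 2.44 times in 3NQ and 1.82 times in the ΔTM-labelled library. E2F1 made up 21.0% of the summed FPKM of all E2F genes for Luc, 13.2% for WT, 15.8% for 3NQ and 20.4% for ΔTM-labelled cells. E2F7, a repressor of late S phase, was low, at 4.25 for Luc, 2.82 for WT, 2.77 for 3NQ and 3.73 for ΔTM-labelled cells. Its ratio of −0.46 in WT and −0.48 in 3NQ did not reach 1.5-fold, and with a pseudocount of 0.1 the ratio in 3NQ did (−0.60). The DP partner TFDP1 had an FPKM of 135, 111, 126 and 131 in the 4 libraries in the order Luc, WT, 3NQ and labelled ΔTM, and TFDP2 had 18.5, 18.9, 17.1 and 22.6.

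RB1, the retinoblastoma protein that restrains the activator E2Fs, neither fell nor rose in any library compared to Luc. Its FPKM was 21.5 for Luc, 22.8 for WT, 19.8 for 3NQ and 19.7 for ΔTM-labelled cells. RBL1, a pocket protein that is itself made in cycling cells, had an FPKM of 7.36 for Luc, 4.80 for WT, 6.30 for 3NQ and 6.13 for ΔTM-labelled cells. The WT value was the lowest, and its log2 ratio of −0.53 was just short of the threshold, which it passed with a pseudocount of 0.1 (−0.61). The RB1 level was 2.92 times that of RBL1 in Luc and 4.75 times in WT, against 3.13 and 3.22 times in 3NQ and the ΔTM-labelled library. RBL2, the pocket protein of resting cells, had an FPKM of 12.5 in both WT and 3NQ, 16.0 in Luc and 15.2 in the ΔTM-labelled library. The summed FPKM of the pocket proteins thus varied between 38.5 and 44.9.

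**Figure D3:**
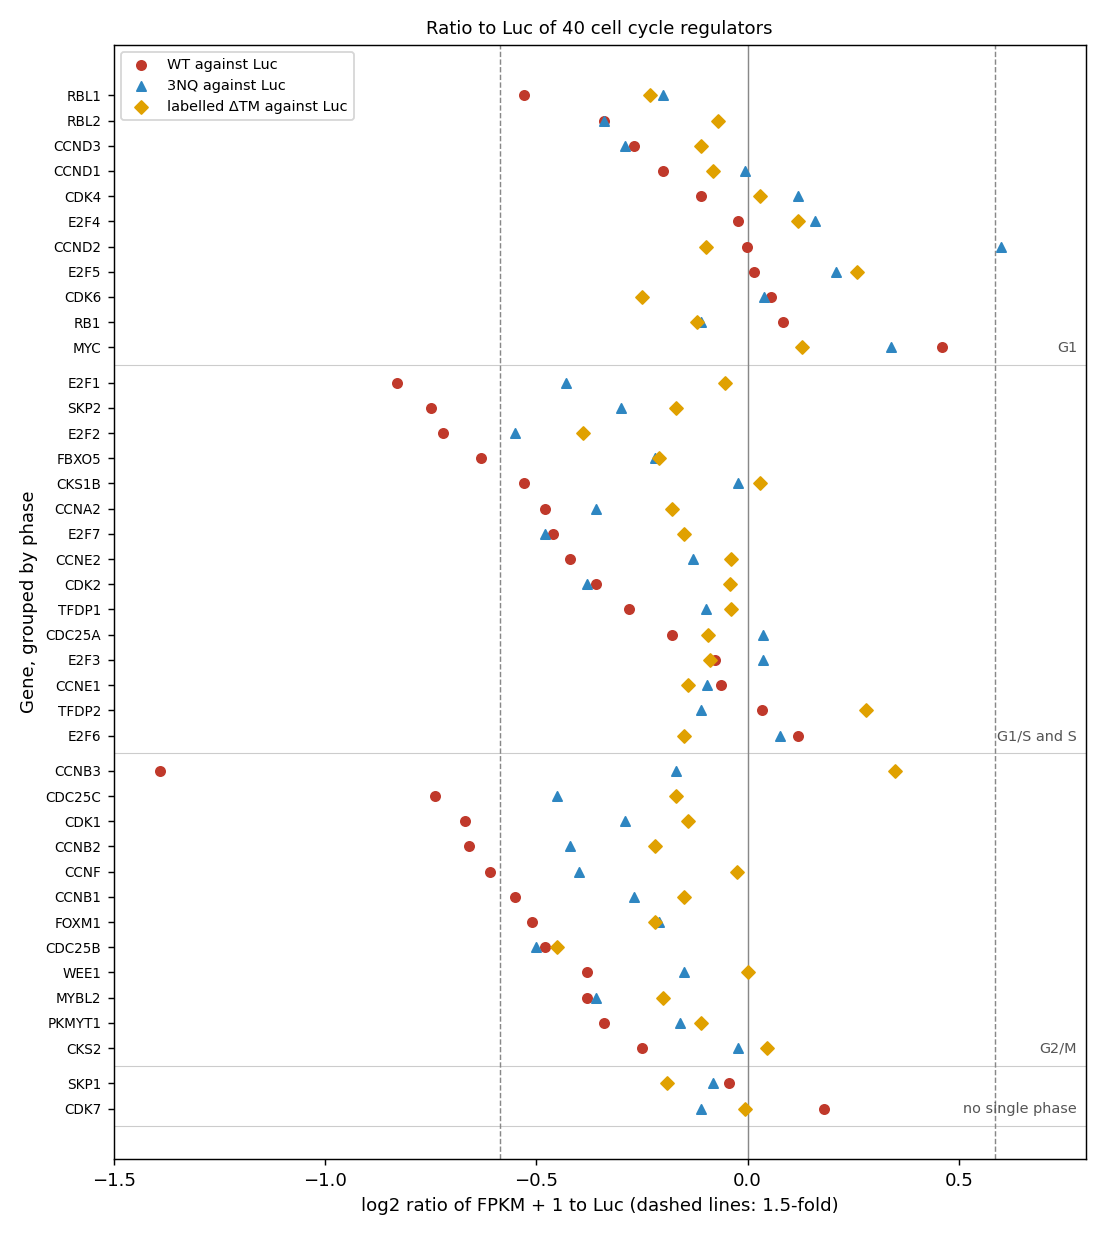
Log2 ratio of FPKM + 1 to Luc of the 40 members that passed the filter, sorted within each phase by the ratio in WT, with circles for WT, triangles for 3NQ and diamonds for the ΔTM-labelled library. Dashed lines mark 1.5-fold; 9 WT circles lie left of the lower line and 1 triangle, CCND2, lies right of the upper line.

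Among the regulators of entry into S phase, the cyclin E genes were low and the cyclin A gene was high. CCNE1 had an FPKM between 5.79 and 6.50 in the 4 libraries, and CCNE2 had 10.4 for Luc, 7.47 for WT, 9.37 for 3NQ and 10.1 for ΔTM-labelled cells. CCNE2 overlaps INTS8, a gene on the opposite strand with an FPKM of 54.3 to 65.5. CCNA2, the cyclin of S phase and early mitosis, had an FPKM of 75.4 for Luc, 53.9 for WT, 58.7 for 3NQ and 66.4 for ΔTM-labelled cells. The levels followed the order from Luc down to WT, with log2 ratios of −0.48, −0.36 and −0.18 in WT, 3NQ and the ΔTM-labelled library. CDK2, the partner of cyclins E and A, had an FPKM of 126 for Luc, 97.6 for WT, 96.6 for 3NQ and 122 for ΔTM-labelled cells, so that WT and 3NQ were alike. CDC25A, the phosphatase that activates CDK2, lay between 7.61 and 8.98.

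SKP2 (ENSG00000145604, chromosome 5 from 36152091 to 36184421, plus strand), which marks the CDK inhibitor p27 for destruction, was among the members that fell in WT. Its FPKM was 38.1 for Luc, 22.3 for WT, 30.7 for 3NQ and 33.7 for ΔTM-labelled cells, a log2 ratio of −0.75, −0.30 and −0.17. CKS1B, the small protein with which SKP2 binds p27, had an FPKM of 327 for Luc, 227 for WT, 322 for 3NQ and 334 for ΔTM-labelled cells. Here WT alone stood apart, with a log2 ratio of −0.53 against Luc, −0.50 against 3NQ and −0.56 against the ΔTM-labelled library, all short of 1.5-fold. CKS2, its paralog, had 247, 208, 243 and 255 in the order Luc, WT, 3NQ and labelled ΔTM. SKP1, the shared scaffold of the ligase, lay between 221 and 253 and overlaps PPP2CA on the same strand. FBXO5, which holds back the anaphase-promoting complex until mitosis, fell in WT, from an FPKM of 27.6 in Luc to 17.5, and had 23.6 in 3NQ and 23.7 in the ΔTM-labelled library. Its log2 ratio of −0.63 in WT became −0.53 with a pseudocount of 5, which ended the call.

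The kinase of mitosis and its abundant cyclins had their highest level in Luc and their lowest in WT. CDK1 (ENSG00000170312, chromosome 10 from 62538089 to 62554610, plus strand) had an FPKM of 138 for Luc, 86.1 for WT, 112 for 3NQ and 125 for ΔTM-labelled cells, and its log2 ratio was −0.67, −0.29 and −0.14. Relative to CDK2 it was 1.10 times as abundant in Luc, 0.882 times in WT, 1.16 times in 3NQ and 1.03 times in the ΔTM-labelled library. CCNB1, the main mitotic cyclin, had an FPKM of 238 for Luc, 162 for WT, 198 for 3NQ and 214 for ΔTM-labelled cells, and its ratio of −0.55 in WT was just short of the threshold. CCNB2 (ENSG00000157456, chromosome 15 from 59397277 to 59417244, plus strand) fell by 0.66 in WT, just beyond it. Its FPKM was 95.0 for Luc, 59.9 for WT, 70.5 for 3NQ and 81.2 for ΔTM-labelled cells. The 2 genes kept a like proportion, with CCNB1 at 2.50 to 2.80 times CCNB2. The summed FPKM of the B-type cyclins was 335 for Luc, 223 for WT, 269.7 for 3NQ and 298 for ΔTM-labelled cells.

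CCNB3, a B-type cyclin known from meiosis, had the lowest ratio of all members, but at levels near the limit of the scale. Its FPKM was 1.95 for Luc, 0.129 for WT, 1.63 for 3NQ and 2.75 for ΔTM-labelled cells. The log2 ratio in WT was −1.39, and it was −3.16 with a pseudocount of 0.1 and −0.44 with a pseudocount of 5, so that its size rests on that choice. CCNF, an F-box protein with a cyclin fold that limits centrosome duplication, had an FPKM of 10.1 for Luc, 6.25 for WT, 7.40 for 3NQ and 9.89 for ΔTM-labelled cells. It fell by 0.61 in WT, and the ratio was −0.42 with a pseudocount of 5, short of the threshold.

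The enzymes that set the activity of CDK1 moved in part. CDC25C (ENSG00000158402, chromosome 5 from 137620954 to 137674044, minus strand), the phosphatase that activates CDK1 at mitosis, had an FPKM of 20.3 for Luc, 11.7 for WT, 14.6 for 3NQ and 17.9 for ΔTM-labelled cells. It fell by 0.74 in WT, with ratios of −0.45 and −0.17 in 3NQ and the ΔTM-labelled library. It overlaps FAM53C on the opposite strand, which had an FPKM of 33.9 in WT and 30.5 in Luc. CDC25B, which starts the activation of CDK1, showed another pattern, with 61.4 in Luc against 43.8 in WT, 43.0 in 3NQ and 44.6 in the ΔTM-labelled library. Here Luc alone stood apart, and the ratios of −0.48, −0.50 and −0.45 were all short of 1.5-fold. WEE1, which inhibits CDK1, had an FPKM of 45.7 for Luc, 35.0 for WT, 41.2 for 3NQ and 45.8 for ΔTM-labelled cells. PKMYT1, its membrane-bound relative, had 34.3, 26.8, 30.6 and 31.8 in the same order. WEE1 exceeded CDC25C by 2.25 times in Luc and 2.99 times in WT.

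The transcription factors of G2 and mitosis did not reach the threshold. FOXM1 had an FPKM of 74.0 for Luc, 51.5 for WT, 64.1 for 3NQ and 63.6 for ΔTM-labelled cells, a log2 ratio of −0.51, −0.21 and −0.22. It overlaps RHNO1 on the opposite strand, at 24.5 to 29.2. MYBL2, the partner of MuvB in cycling cells, had an FPKM of 65.3 for Luc, 49.8 for WT, 50.7 for 3NQ and 56.7 for ΔTM-labelled cells, so that WT and 3NQ were alike. In all, 15 members overlap another gene in the annotation of the table, and how the strand of the reads was treated is not given in the sources used here, so that reads of opposite genes may not be separable.

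The calls in WT depended on the control. When the mean of 3NQ and the ΔTM-labelled library took the place of Luc, only CCNB3 and E2F1 (−0.60) were lower by 1.5-fold, where 1.85% of all genes were. The medians then lay closer together, at −0.16 for the G1 members, −0.21 for those of G1/S and S phase and −0.32 for those of G2/M. Against the mean of the other 3 libraries, CCNB3 (−1.46), E2F1 (−0.68) and SKP2 (−0.59) were lower, again beside 1.85% of all genes. No member was higher in WT than either mean, where 2.57% and 2.26% of all genes were. Compared directly with 3NQ, WT was lower for CCNB3 (−1.22) and CCND2 (−0.60), where 1.53% of all genes were lower, and higher for no member, where 2.87% of all genes were higher. The call of CCND2 in that comparison is the 3NQ level already described. The medians there did not set G1 apart, at −0.18 for the G1 members, −0.17 for those of G1/S and S phase and −0.23 for those of G2/M. Compared with the ΔTM-labelled library, WT was lower for CCNB3 (−1.73), E2F1 (−0.78) and CCNF (−0.59), where 2.89% of all genes were lower. It was higher for no member, where 4.22% of all genes were higher. The medians in that comparison were −0.14 for the G1 members, −0.31 for those of G1/S and S phase and −0.39 for those of G2/M. When the libraries were rescaled to a common median of ratios or to a common upper quartile, 7 or 6 members were lower in WT than in the ΔTM-labelled library, where 3.66% or 3.44% of all genes were, and none was higher, where 3.33% or 3.53% were. The median ratio of the members was −0.19 for WT against 3NQ and −0.26 for WT against the ΔTM-labelled library, and that of all genes was 0.025 and 0.047. Between 3NQ and the ΔTM-labelled library, CCND2 alone was past 1.5-fold, higher in 3NQ (0.69), where 1.42% of all genes were higher and 1.84% lower.

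Other genes of the cell cycle, none of them a member, were read from lists. Over all genes, 3.30% fell in WT compared to Luc, 2.54% in 3NQ and 1.57% in the ΔTM-labelled library. The medians over all genes were −0.0049, −0.038 and −0.060. Of 41 genes of S phase, 6 fell in WT compared to Luc and all 41 were below Luc, with a median of −0.41. The lowest were RAD51AP1, a DNA repair factor (−0.68), and CDC45, part of the replication helicase (−0.63). In 3NQ and the ΔTM-labelled library the medians were −0.19 and −0.04, and no gene of the list fell. Of 48 genes of G2 and mitosis, 14 fell in WT and all 48 were below Luc, with a median of −0.50, beside −0.53 for the G2/M members. NDC80, of the kinetochore, had the lowest ratio (−0.88), followed by the topoisomerase TOP2A (−0.81). In 3NQ, HMMR (−0.63) and CENPE (−0.59), which act on spindle and kinetochore, fell and the median was −0.24. In the ΔTM-labelled library the median was −0.17. WT was the lowest library for 39 of the S-phase genes and 45 of the G2/M-phase genes, where it was lowest for 26.6% of all genes.

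The partners of the members outside these periodic genes were read in the same way. In WT, 3.30% of all genes fell and 3.35% rose, with a median of −0.0049, and in 3NQ 2.54% fell. A list of 8 to 16 genes with 0 or 1 call is not set apart from those shares. Of 16 subunits and activators of the anaphase-promoting complex, which destroys the B-type cyclins, none fell or rose in WT and the median was −0.01. Its mitotic activator CDC20 had an FPKM of 84.7 in WT and 122 in Luc, a ratio of −0.53. Of 8 partners of the SCF ligase, none fell, and BTRC, a substrate receptor, rose by 0.62. Of 6 measured genes in a list of MuvB and the MYB family, MYBL1 (−0.63) and MYB (−0.61) fell in WT, whereas RBBP4, LIN9, LIN52 and LIN54 did not. MYB was listed by its family and is not taken here as a partner of MuvB. MYB was low, with an FPKM of 2.01 in Luc against 0.980 in WT and 0.884 in 3NQ, where it also fell (−0.68). Of 7 measured CDK inhibitors, CDKN2C (−0.92) and CDKN3 (−0.61), a phosphatase of CDKs, fell in WT and CDKN1A, which encodes p21, rose (0.76). CDKN2C, an inhibitor of CDK4 and CDK6, had an FPKM of 10.5 for Luc, 5.06 for WT, 6.82 for 3NQ and 8.32 for ΔTM-labelled cells. Among 16 cyclins and CDKs of transcription none fell or rose in WT, with a median of −0.02. Among 14 measured atypical cyclins and CDKs, CCNG2 alone fell in WT (−0.75), and it fell in 3NQ as well (−0.70).

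**Figure D4:**
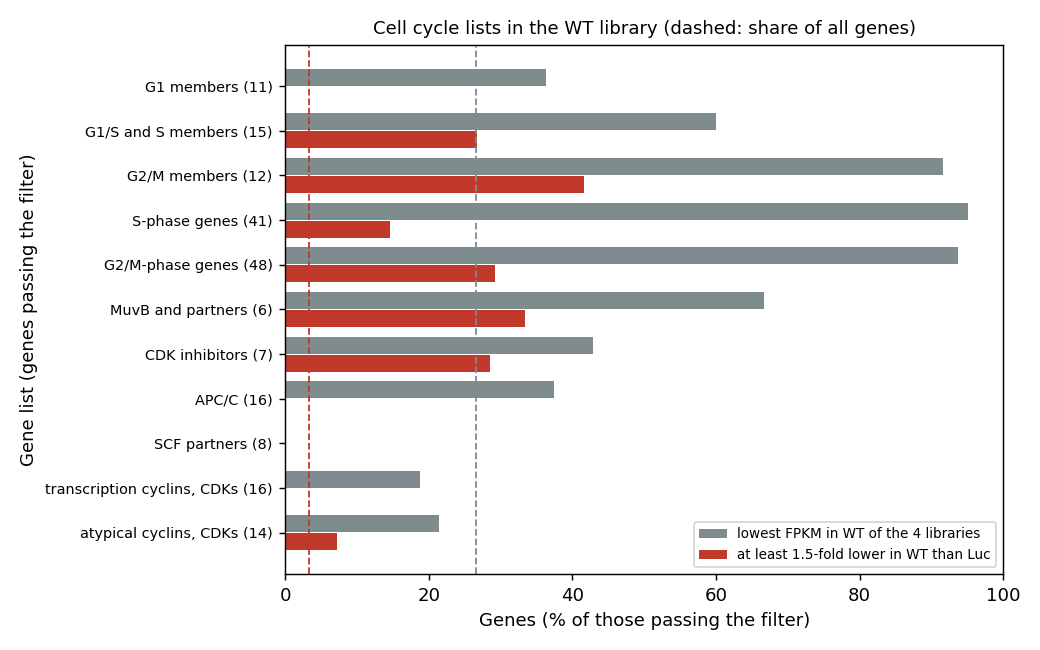
Percent of the genes of each list that had their lowest FPKM of the 4 libraries in WT (grey bars) or fell by 1.5-fold or more against Luc (red bars); the number of genes is in parentheses. Dashed lines are the shares of all 11729 genes, 26.6% and 3.30%. The grey bars reach 45 of 48 for the G2/M-phase genes and 3 of 16 for the transcription cyclins and CDKs. The bars named for MuvB and partners include MYB, listed by its family.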

How the data were processed

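The deposited FPKM values were made by the authors, who filtered the reads on undetermined and low-quality bases, used TopHat for the alignment to GRCh37, and estimated each gene of Ensembl release 72 with Cufflinks 2.1.1, with a mask over non-coding regions and with the multi-read and fragment bias corrections switched on. The values are thus scaled for depth and gene length, and no counts were used here. From them, log2 ratios of FPKM + 1 were taken (Python 3.11.15 with pandas 2.3.3 and numpy 2.4.6) for genes that reached an FPKM of 1 in any library, and a 1.5-fold threshold took the place of a test. The steps were tested on simulated data, with larger changes than those of most members called here and not in genes of low level. That test does not bear on calls near the threshold or at low levels. Figures were drawn with matplotlib 3.10.9. The members and the 10 gene lists, written from general knowledge, were chosen with earlier results of these data known. The named genes were all members, KIAA1324, and from each list the 2 lowest and the 2 highest ratios in WT past 1.5-fold, with all genes where 5 or fewer passed. CDC20, CDCA7, MNAT1, LIN9, LIN52, LIN54, RBBP4, CD68, COL1A1, CD3E and genes overlapping members were chosen after their values were seen. Phases follow the period in which each protein is known to act, not these data. The alternatives were 2 other pseudocounts, 3 scalings, repeated symbols summed, 2 other filters, a 2-fold threshold and 2 other controls for WT.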

Additional observations from a re-analysis of the deposited data

How the results depend on the processing

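No paired analysis was possible because each group has 1 library. Of the 9 members lower in WT than in Luc, 5 were left with a pseudocount of 5, 1 at a 2-fold threshold, 2 against the mean of both mutants and 3 against the mean of all the other 3 libraries. The same settings gave 2, 0, 1 and 2 S-phase genes in place of 6 (3 with libraries scaled to the same total), of which CDCA7, called with either mean, was not among the 6, so that 0 and 1 of the 6 were left with the means. They left 9, 0, 1 and 5 of the 14 G2/M-phase genes, and 1, 0, 0 and 1 of the 2 CDK inhibitors. Of MYBL1 and MYB, 1 was left with an FPKM of at least 5 and 0 in those 4 settings. The atypical cyclin CCNG2 was lost, leaving 0, at the 2-fold threshold and with either mean as the control, and with either mean 1 gene of the transcription list, MNAT1, was lower in WT. The medians in WT against the mean of both mutants were −0.16 for G1, −0.21 for G1/S and S and −0.32 for G2/M, in place of −0.02, −0.42 and −0.53. In 3NQ, a pseudocount of 0.1 gave 2 members lower than Luc, E2F2 (−0.61) and E2F7 (−0.60). With it, 574 of all 11729 genes were lower, a share near that of the members. CCND2 was lost, leaving 0 higher, with a pseudocount of 5, the same total, an FPKM of at least 5 and the 2-fold threshold. Members lower in WT than in 3NQ numbered 0 with a pseudocount of 5 or an FPKM of at least 5, and 1 at the same total or at 2-fold. Members lower in WT than in the ΔTM-labelled library numbered 5 with a pseudocount of 0.1, 7 by the median of ratios, 6 by the upper quartile and 1 at 2-fold. Of all genes, 553, 429, 404 and 82 were lower there in these settings. Between 3NQ and the ΔTM-labelled library, 1 member was lower in 3NQ with a pseudocount of 0.1, where 429 of all genes were. In that comparison 0 members were higher with a pseudocount of 5, an FPKM of at least 5 or 2-fold. No result changed direction past the threshold. Of all genes, the calls in the ΔTM-labelled library against Luc were 184 lower and 180 higher, and 144 and 220 by the median of ratios; a pseudocount of 0.1 or 5 gave 650 or 128 genes lower in WT than in Luc in place of 387, a 2-fold threshold gave 67, and either mean as the control gave 217. Signs near 0 turned under rescaling for CCND2 and E2F4 in WT, CCND1, CKS1B and CKS2 in 3NQ, and CCNE2, CCNF, CDK2, CDK7, E2F1 and TFDP1 in the ΔTM-labelled library. The causes were not tested. With 1 library per group and no counts, neither the spread between cultures nor the counting error of a low value such as CCNB3 could be given.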

Other observations

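MNAT1, the assembly factor of the CDK7 complex, had an FPKM of 145 for Luc, 115 for WT, 98.4 for 3NQ and 404 for ΔTM-labelled cells. Its log2 ratio to Luc there was 1.47, the only ratio past 1.5-fold among the 16 cyclins and CDKs of transcription in that library, while CDK7 (−0.01) and CCNH (−0.03), the other subunits of that complex, were near Luc. CCNG2, an atypical cyclin of arrested cells, was lower than Luc in WT (−0.75) and in 3NQ (−0.70), with an FPKM of 28.4 for Luc, 16.5 for WT, 17.1 for 3NQ and 22.3 for ΔTM-labelled cells. CDC6, which loads the replication helicase, had an FPKM of 58.7 for Luc, 46.8 for WT, 77.4 for 3NQ and 63.3 for ΔTM-labelled cells, so that WT was past 1.5-fold below 3NQ but not below Luc. CENPE, a kinetochore motor, had its lowest FPKM in 3NQ (8.44), with 13.2 in Luc, 10.7 in WT and 15.8 in the ΔTM-labelled library. These genes were chosen after their values were seen.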
